A study of Mus musculus with 2 samples.

Results

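The genes described are 10 members of the epidermal growth factor (EGF) receptor system, 7 ligands (Areg, Ereg, Epgn, Hbegf, Tgfa, Btc and Nrg1) and 3 receptors (Egfr, Erbb2 and Erbb3). They were taken by name, as every probe whose gene name or transcript identifier in the scanner files gives one of these genes, which found 27 of the 41174 probes of the array, and at least 1 for each gene. The data are 2 microarrays with 2 colours each, on which RNA of fetal thymic stromal cells from C57BL/6 mice was measured after 72 h in one of 2 kinds of culture. In reaggregation thymus organ culture (RTOC, labelled with Cy5) the dispersed cells were placed as a small drop on a membrane, and in 2D culture (labelled with Cy3) they were plated on a dish. One array holds cells of E14.5 fetuses whose lobes had been kept in organ culture for 8 days, and the other holds cells of E15.5 fetuses after 9 days. All lobes, in both kinds of culture, had been treated with 1.35 mM deoxyguanosine, an agent that depletes lymphoid cells, and the labels name no genetic change in these mice. The study is about the control of β5t, a thymoproteasome subunit encoded by Psmb11, and used the arrays to look for transcription factors that differ between the 2 kinds of culture as β5t does. Both arrays served as replicates (n = 2) of the same comparison of RTOC with 2D culture. Stage and time in organ culture thus cannot be told apart from the array, and as RTOC was labelled with Cy5 on both, dye and culture cannot be told apart either.

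EGF family ligands are made as precursors in the cell membrane, and proteases of the ADAM family cut them free. Amphiregulin (Areg) and transforming growth factor alpha (Tgfa) bind the EGF receptor (Egfr), whereas heparin-binding EGF-like growth factor (Hbegf), betacellulin (Btc) and epiregulin (Ereg) bind it and also ErbB4. Neuregulin 1 (Nrg1) binds ErbB3 and ErbB4. The receptors work in pairs: ErbB2 binds no known ligand and serves as a partner, and ErbB3 has little kinase activity of its own. Active pairs signal through Ras and the kinase ERK, which switches on early response genes, some of which encode inhibitors of the pathway. In epithelia the pathway is known for its part in growth, migration and wound repair.

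Probe sequences are shown for the genes in which it matters what the probe reads. The single Areg probe and the pair of Nrg1 probes shown lie in coding sequence. Nrg1 probe 1 lies within the EGF-like domain, the part of the ligand that binds the receptor, and probe 2 spans the end of that domain. The capitals mark cysteine codons in the reading frame, since paired cysteines hold the EGF-like fold together. The Areg probe holds 0 such codons.
Areg probe 1: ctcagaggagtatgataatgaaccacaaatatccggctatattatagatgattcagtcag
Nrg1 probe 1: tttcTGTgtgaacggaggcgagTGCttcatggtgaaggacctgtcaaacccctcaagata
Nrg1 probe 2: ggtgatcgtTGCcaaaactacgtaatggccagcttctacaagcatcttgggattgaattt

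For Erbb3 the probes disagreed, as described with the receptors. Probes 3 and 5 were designed on the curated transcript and overlap within the kinase domain by 40 bases, in capitals. Probe 1 was designed on a predicted transcript, and its first 30 bases are given. It shares no stretch longer than 10 bases with any of the other 4 probes.
Erbb3 probe 3: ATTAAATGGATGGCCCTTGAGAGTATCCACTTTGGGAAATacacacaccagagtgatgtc
Erbb3 probe 5: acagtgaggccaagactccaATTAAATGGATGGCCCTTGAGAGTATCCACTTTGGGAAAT
Erbb3 probe 1, start: gttgcagatacacactcattacaagccaat

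Epgn, Ereg, Areg and Btc lie in this order on chromosome 5, and no other protein-coding gene of the RefSeq table (GRCm38.p6) lies between them. The 250 bases before the transcription start of Areg (chr5:91139349-91139598, + strand) and of Epgn (chr5:91027267-91027516, + strand) are shown because Areg was measured well above background and Epgn, from the same cluster, was not. The capitals mark the letters of the cAMP response element, TGACGTCA, and of the TATA box, TATAAA.
Areg promoter: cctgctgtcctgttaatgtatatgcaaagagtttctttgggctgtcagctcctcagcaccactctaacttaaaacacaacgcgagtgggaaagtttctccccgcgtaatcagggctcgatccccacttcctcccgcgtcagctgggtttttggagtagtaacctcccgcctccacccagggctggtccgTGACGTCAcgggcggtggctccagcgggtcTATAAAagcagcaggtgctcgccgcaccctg
Epgn promoter: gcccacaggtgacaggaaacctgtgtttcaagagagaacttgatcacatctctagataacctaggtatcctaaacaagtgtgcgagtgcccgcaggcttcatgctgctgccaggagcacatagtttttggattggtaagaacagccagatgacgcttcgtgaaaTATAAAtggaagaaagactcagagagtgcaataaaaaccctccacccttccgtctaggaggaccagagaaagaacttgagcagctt

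Motifs were searched in the promoters of 6 of the members, Areg, Btc, Egfr, Epgn, Erbb2 and Tgfa. The other members, Hbegf among them, were not searched. On either strand of these 250 bases, the cAMP response element was found in Areg alone of the 6, starting 61 bases before the start, and in 1.55% of all 32851 promoters. The letters TATAAA were found in Areg, 31 bases before the start, and in Epgn, 86 bases before it, against 12.4% of all promoters. The AP-1 motif TGANTCA was found in 0 of the 6 and in 6.75% of all, and the EGR motif GCGNGGGCG in 0 of the 6 and in 4.7% of all. The TEAD motif GGAATG was found in Erbb2 alone of the 6, 88 bases before its start, and in 12.6% of all. No match overlapped another. The matches describe letters and do not show that a factor binds.

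Most of the ligands were lower in RTOC, and of the receptors Erbb3 was by its brightest probe. For each gene the probe with the highest mean signal was taken, and the log2 ratio of RTOC over 2D was tested with limma across all 23685 probes with at least 1 channel well above background on each array, adjusted by Benjamini-Hochberg, at a threshold of 0.05. Of the 9 member genes tested, 7 were lower in RTOC (Areg, Ereg, Hbegf, Tgfa, Btc, Nrg1 and Erbb3), 0 were higher and 2 did not pass (Egfr and Erbb2). At an unadjusted p under 0.05, limma likewise gave 0 higher and 7 lower, and 10228 of all 23685 probes tested passed in either direction. At the adjusted threshold, 12.0% of all 16128 genes tested were lower and 16.6% higher. Ereg, Btc and Nrg1 on both arrays, and Areg and Tgfa on 1 array each, entered the test through 2D culture alone. With both channels of both arrays required well above background, 4 members were tested and 2 were lower (Hbegf and Erbb3). Of all 20158 probes tested with this filter, 3234 were lower and 2843 higher. The Erbb3 call rests on a probe that its other probes did not bear out, as described below. The median log2 ratio was −3.01 over the 9 members and 0.05 over all genes tested, and with members that were dim in RTOC set at the bound given below it was −0.77. Of the 27 probes, 18 were tested, of which 12 passed and were lower, and 9 were not tested. Over all 23685 probes tested, 3211 were lower and 3609 higher. All probes of Nrg1 are among the 12, and probes of the same gene are not replicates.

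Hbegf was the only ligand well above background in all 4 channels. Its signal, in arbitrary units after quantile normalization of the channels, was 10200 in 2D culture against 756 in RTOC for E14.5, and 6670 against 507 for E15.5. Both RTOC signals lay far below both 2D signals. The log2 ratio was −3.76 and −3.72, with a mean of −3.74 and an SD of 0.03 (n = 2 arrays), which is 13.3-fold lower in RTOC (limma adjusted p = 0.00161). With another correction of the background (normexp and loess, described below), the mean was −3.01 (limma adjusted p = 0.0108).

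Areg was lower in RTOC, where its signal was well above background on the E14.5 array only. Its signal was 2050 in 2D culture against 131 in RTOC for E14.5, and 544 against 30.4 for E15.5. RTOC was thus measured on 1 of 2 arrays. The log2 ratio was −3.97 and −4.16, a mean of −4.06 ± 0.14 (SD, n = 2; limma adjusted p = 0.00161). With normexp and loess the mean was −1.43 and did not pass (limma adjusted p = 0.0598), so that the size of the difference is uncertain. The 2D signals of the arrays themselves differed, and the higher of the RTOC signals was below the lower of the 2D signals.

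Tgfa was printed at 10 spots on each array, which gives a measure of technical error. The signal of this probe averaged 367 in 2D culture against 40.6 in RTOC for E14.5, and 353 against 48.9 for E15.5, and RTOC was well above background on the latter only. All 10 spots were lower in RTOC on both arrays, with log2 ratios from −3.74 to −2.68 on the E14.5 array and from −3.57 to −2.37 on the E15.5 array. The mean over arrays was −3.01 ± 0.23 (SD, n = 2; limma adjusted p = 0.00228), and −0.66 with normexp and loess (limma adjusted p = 0.0448). The SD between single spots of the same array was 0.36 and 0.38. Each array value is a mean of 10 spots, so that these SDs cannot be set directly against that between the arrays. The second Tgfa probe was not well above background in any channel.

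Ereg, Btc and Nrg1 were well above background in 2D culture on both arrays and in RTOC on neither, so that only a lower bound of the difference can be given. The bound sets the 2D signal against the dimmest signal that was still well above background, or the probe's own signal where that was higher, and without a dye swap it is open to dye bias. The adjusted p given first with each gene belongs to the fitted log2 ratio, not to the bound. Ereg, read by its probe 1, had a signal of 374 and 167 in 2D culture and 14.1 and 27.3 in RTOC (E14.5 and E15.5), and was at least 1.42-fold lower in RTOC (limma adjusted p = 0.00692), but did not pass with normexp and loess, the scale of the bound (−0.58, limma adjusted p = 0.108). Its probe 2 had the same 2D signal, 374, on the E14.5 array, but its 82.6 on the E15.5 array was not well above background, and it was not tested. Btc had 231 and 116 in 2D culture and 45.9 and 42.9 in RTOC, and was at least 1.21-fold lower (limma adjusted p = 0.0115), and it too did not pass with normexp and loess (−0.28, limma adjusted p = 0.201). Its probe 2 was not well above background in any channel. In each of the pair of called genes, every 2D signal was above every RTOC signal.

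Nrg1 was measured by 5 probes, and all 5 were called lower in RTOC, of which normexp and loess kept probe 1 only. Probe 1, with the sequence in the EGF-like domain shown above, had a signal of 541 and 367 in 2D culture and of 70 and 39.8 in RTOC (E14.5 and E15.5), and was at least 1.7-fold lower (limma adjusted p = 0.0022, and 0.0388 with normexp and loess). Probe 2, at the end of that domain, had 429 and 208 in 2D culture and 67.6 and 49.6 in RTOC, at least 1.41-fold lower (limma adjusted p = 0.00429, and 0.0936 with normexp and loess). The bounds of probes 3, 4 and 5 were 1.61, 1.21 and 1.27, and their limma adjusted p with normexp and loess was 0.0671, 0.208 and 0.146. The 5 probes share their RNA and are not replicates. None of them was well above background in RTOC on either array.

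Epgn, which encodes epigen, was the only ligand with no signal well above background. Its probe read 25.8 in 2D culture against 48.2 in RTOC for E14.5, and 32.7 against 30.5 for E15.5, and was not tested. Epgn thus could not be measured on these arrays, which does not show that the cells lacked it.

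**Figure D1:**
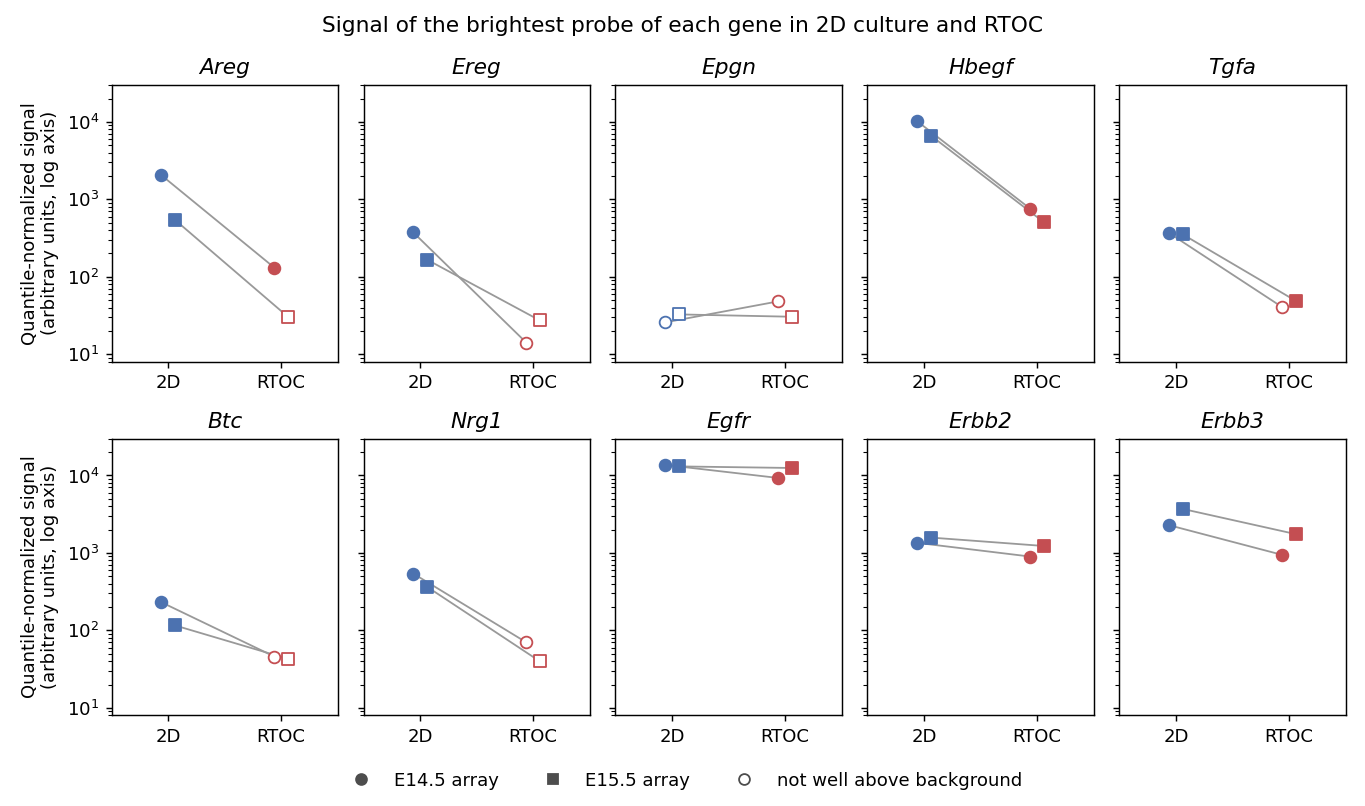
Quantile-normalized signal (arbitrary units, log axis) of the brightest probe of each member gene in 2D culture (blue) and RTOC (red), with 1 line per array (circles E14.5, squares E15.5) and open symbols where the signal was not well above background. Hbegf falls from 10200 and 6670 to 756 and 507 with all symbols filled, Ereg, Btc and Nrg1 end in open symbols in RTOC, Epgn is open throughout, and Egfr stays between 9290 and 13700.

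Egfr and Erbb2 were detected in both kinds of culture, whereas the probes of Erbb3 disagreed. Egfr was well above background in all 4 channels at 5 of its 6 probes, Erbb2 at both of its probes, and Erbb3 at 1 of its 5. Erbb3 was lower in RTOC by its brightest probe, whereas Egfr and Erbb2 did not pass the test by theirs. Every mean log2 ratio of the 8 receptor probes tested was below 0.

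Egfr, the receptor of most of these ligands, had signals at its brightest probe of 13700 in 2D culture against 9290 in RTOC for E14.5, and 13100 against 12500 for E15.5. The log2 ratio of −0.56 on the first and −0.06 on the second gave a mean of −0.31 ± 0.35 (SD, n = 2; limma adjusted p = 0.424). Its 10 spots agreed within an SD of 0.03 and 0.04, so that the gap between the arrays was larger than the spot error. Probes 2 and 3, designed on another transcript of the gene, had means of −0.65 and −0.95 and did not pass (limma adjusted p = 0.12 and 0.0746). Probe 4, designed on the transcript of the brightest probe, had signals of 877 and 843 in 2D culture and 238 and 464 in RTOC. It was lower by a mean log2 ratio of −1.37 ± 0.72 (SD, n = 2, limma adjusted p = 0.0327). With normexp and loess its mean was −0.64 and did not pass (limma adjusted p = 0.0763). Probe 5 was lower on the E14.5 array (−0.83) and higher on the E15.5 array (0.37), and probe 6 was not well above background. The probes of Egfr thus disagreed, and 1 of the 5 tested passed.

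Erbb2, the partner receptor, had signals of 1350 in 2D culture against 898 in RTOC for E14.5, and 1580 against 1230 for E15.5, at a probe with 10 spots. The mean log2 ratio was −0.48 ± 0.16 (SD, n = 2; limma adjusted p = 0.207), and that of its dimmer probe 2 was −0.8 ± 0.11 (limma adjusted p = 0.0658). On both arrays and at both probes the RTOC signal was the lower, without passing the threshold.

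Erbb3, a receptor of Nrg1, had signals at probe 1 of 2280 in 2D culture against 944 in RTOC for E14.5, and 3700 against 1750 for E15.5. All 4 were well above background, and on each array the RTOC signal was the lower. The mean log2 ratio was −1.17 ± 0.14 (SD, n = 2), or 2.26-fold lower (limma adjusted p = 0.0237). The 4 probes designed on the curated Erbb3 transcript, among them the overlapping probes 3 and 5 shown above, were not well above background in any channel, with signals from 12.9 to 52.8. The call thus rests on a probe for a predicted transcript that the other Erbb3 probes did not bear out.

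**Figure D2:**
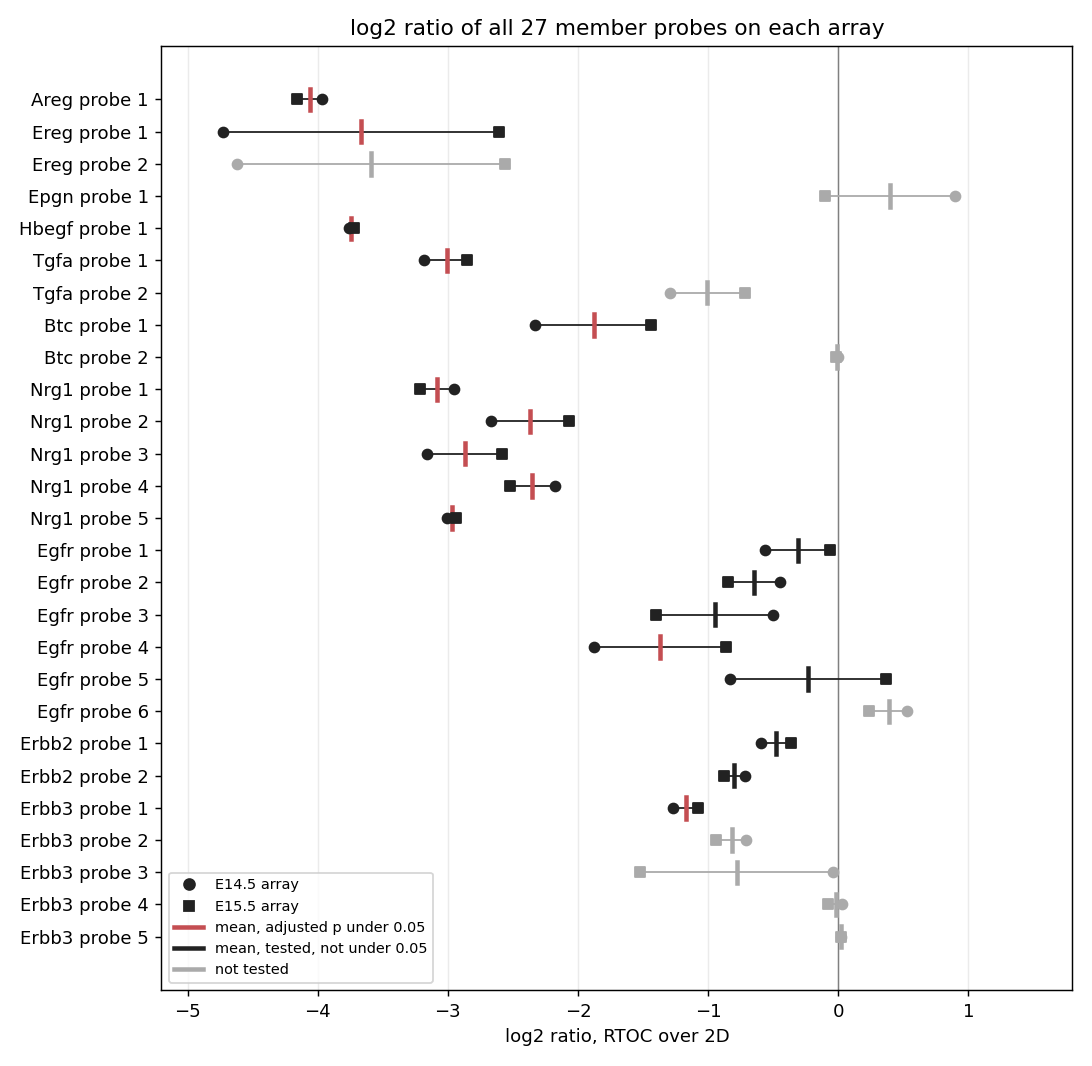
log2 ratio of RTOC over 2D of all 27 member probes on the E14.5 array (circles) and the E15.5 array (squares), with the mean as a vertical bar, red where the limma adjusted p was under 0.05 and grey where the probe was not tested. The tested ligand probes lie between −4.73 and −1.44 on each array, and the tested receptor probes between −1.88 and 0.37.

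The size of the ligand differences depended on how the background was corrected. The values above come from signals from which the scanner software had subtracted the background. With normexp, which models signal and background together and adds an offset of 50, and loess normalization within each array, limma called 4 of the 9 member genes lower (Hbegf, Nrg1, Tgfa and Erbb3). Areg, Ereg and Btc did not pass. Of all 23685 probes tested, 1701 were lower and 2008 higher with this correction. Nrg1 at probe 1 moved to −0.76 (limma adjusted p = 0.0388), and Erbb3 from −1.17 to −0.9 (limma adjusted p = 0.0292). All 9 kept a negative mean, but not their order, since Hbegf and Areg were then followed by Erbb3. With 2 arrays, an exact sign-flip permutation test of a single gene cannot go below p = 0.5, so that each limma p rests on the spread shared over all probes.

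**Figure D3:**
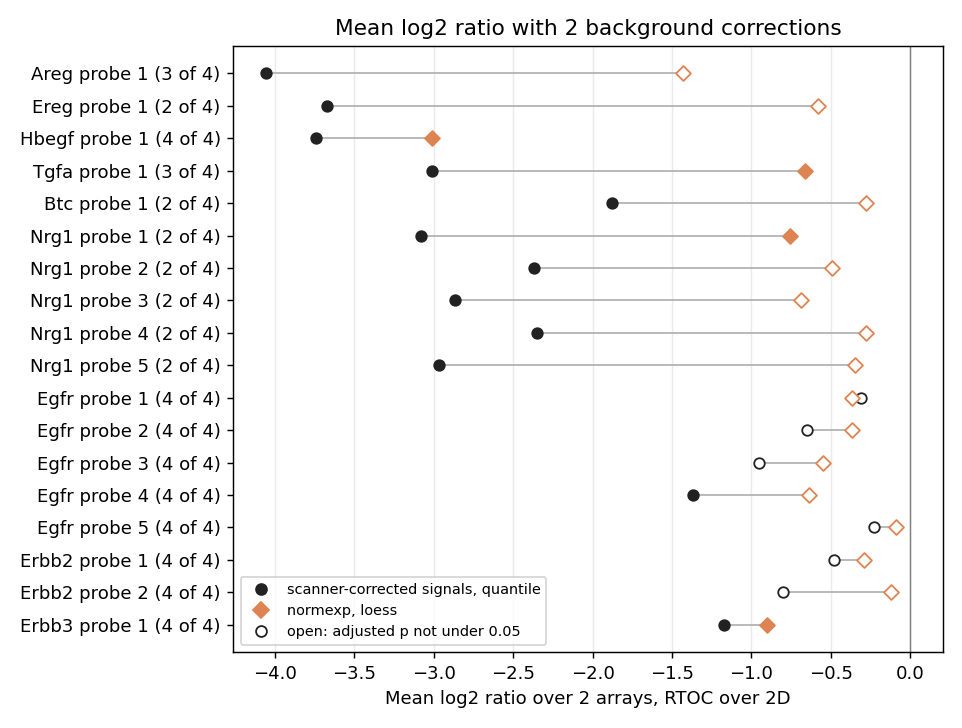
Mean log2 ratio of RTOC over 2D (2 arrays) of the 18 tested member probes with the background subtracted by the scanner software and quantile normalization (black circles) and with normexp and loess (orange diamonds), filled where the limma adjusted p was under 0.05; the label gives the number of 4 channels well above background. Hbegf moves from −3.74 to −3.01, whereas Areg moves from −4.06 to −1.43 and Ereg from −3.67 to −0.58.

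Markers of the cell types that such cultures can hold did not all move one way. All 8 epithelial and all 8 mesenchymal markers were well above background in all 4 channels. Of the epithelial markers 3 were higher in RTOC (Psmb11, Krt5 and Foxn1) and 2 lower (Krt14 and Cdh1), with a summed signal of 310000 to 638000 in 2D culture and 704000 to 782000 in RTOC. Of the mesenchymal markers 3 were higher (Lum, Pdgfra and Dcn) and 4 lower (Col1a1, Col1a2, Pdgfrb and Thy1), with sums of 331000 to 431000 and 273000 to 292000. Of 5 endothelial markers tested 4 were higher and 0 lower, also at an unadjusted p under 0.05, where 10228 of all 23685 probes tested passed. The endothelial sums were 634 to 1540 in 2D culture and 6420 to 9970 in RTOC. In 2D culture Pecam1, Cdh5 and Tie1 did not rise well above background, and so were tested through RTOC alone. Tek, dim in 2D culture too, was not tested. Of 5 myeloid markers 2 were higher (Adgre1 and Csf1r), with sums of 7820 to 9130 and 40500 to 45900, of 4 T lineage markers tested 1 was higher (Cd3g), with sums of 643 to 949 and 968 to 2470, and Ptprc, expressed across haematopoietic cells, was higher by a log2 ratio of 1.88 (limma adjusted p = 0.00609). No marker was listed at a signal of 0. The sums weigh bright probes most. Krt8 and Krt18, which did not pass, hold most of the epithelial sums, and Adgre1 most of the myeloid sum in RTOC. Over all genes tested 16.6% were higher and 12.0% lower at the adjusted threshold. With normexp and loess Pecam1, Tie1, Cd3g, Pdgfrb and Col1a2 no longer passed. The part of these marker differences in the ligand values was not tested. In bulk RNA, fewer cells of a type cannot be told apart from less RNA per cell.

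Among the other ligands and receptors of the family, Egf was higher in RTOC. Of 5 genes listed, 4 were found on the array by name and 3 were tested. Of these 1 was higher in RTOC and 0 lower, against 16.6% higher and 12.0% lower over all genes tested. At an unadjusted p under 0.05, limma gave 2 higher and 0 lower, and 10228 of all 23685 probes tested passed in either direction. Egf, the founding ligand, had a signal of 63.9 in 2D culture, not well above background, against 302 in RTOC for E14.5, and of 85.3 against 364 for E15.5. Its mean log2 ratio was 2.17 ± 0.1 (SD, n = 2; limma adjusted p = 0.0041), and with normexp and loess it was 0.57 and did not pass (limma adjusted p = 0.0555). Erbb4, the receptor shared by Nrg1, Hbegf and Btc, had 4200 and 4310 in 2D culture and 4850 and 5030 in RTOC, a mean log2 ratio of 0.22 ± 0.01 (limma adjusted p = 0.548). Nrg4 was well above background in RTOC only and did not pass (limma adjusted p = 0.114), and Nrg3 was not well above background in any channel.

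Of 6 genes for ligand release, all tested, 1 was higher in RTOC and 3 were lower, against 16.6% higher and 12.0% lower over all genes tested. Rhbdf2, which encodes iRhom2, a partner that ADAM17 needs to mature, had signals of 1700 and 2000 in 2D culture and 4960 and 7190 in RTOC. It was higher by a mean log2 ratio of 1.69 ± 0.21 (SD, n = 2; limma adjusted p = 0.00871). Adam17, the main sheddase of Areg, Hbegf and Tgfa, had a mean log2 ratio of 0.25 ± 0.39 (limma adjusted p = 0.522), and its signals of the 2 kinds of culture overlapped. Adam9 was lower by a mean of −1.91 ± 0.57 (limma adjusted p = 0.00982), Adam12 by −1.33 ± 0.43 (limma adjusted p = 0.0227) and Adam10, which sheds Btc, by −1 ± 0.03 (limma adjusted p = 0.0354). With normexp and loess Adam12 (−0.23, limma adjusted p = 0.249) and Adam10 (−0.25, limma adjusted p = 0.221) no longer passed.

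Of the 14 genes for feedback and receptor turnover listed, 12 were tested, and 1 was higher in RTOC, 2 were lower and 9 did not pass. Over all genes tested 16.6% were higher and 12.0% lower, and counts this small are near those shares. Dusp4, a phosphatase that acts on ERK, had signals of 18400 and 8640 in 2D culture and 3450 and 2290 in RTOC, a mean log2 ratio of −2.17 ± 0.35 (SD, n = 2; limma adjusted p = 0.00498). Errfi1, an inhibitor that binds the EGF receptor kinase, had 32700 and 18200 against 6750 and 7810, a mean of −1.75 ± 0.75 (limma adjusted p = 0.0174). In both genes every RTOC signal was below every 2D signal. Lrig2, of a family of membrane proteins that regulate these receptors, was higher by 1.14 ± 0.66 (limma adjusted p = 0.0481), which normexp and loess did not keep (0.98, limma adjusted p = 0.0654).

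Most genes for the proteins that carry the signal from the receptor to ERK did not pass the test. Of 21 genes for signal transducers, all well above background in all 4 channels, 1 was lower in RTOC, 0 were higher and 20 did not pass. At an unadjusted p under 0.05, limma gave 1 higher and 5 lower, and 10228 of all 23685 probes tested passed in either direction. The gene that passed after adjustment was Nras, with signals of 2710 and 2540 in 2D culture and 810 and 879 in RTOC. Its mean log2 ratio was −1.64 ± 0.15 (SD, n = 2, limma adjusted p = 0.00918). The median over the list was −0.14. Over all genes tested 16.6% were higher and 12.0% lower at the adjusted threshold, so that most of all genes tested did not pass either. With normexp and loess 3 transducers were lower (Nras, Ptpn11 and Hras), and so were 1701 of all 23685 probes tested.

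Of 15 genes known to respond to ERK, 14 were tested, and 10 were lower in RTOC, 0 were higher and 4 did not pass. Over all genes tested 12.0% were lower and 16.6% higher at this adjusted threshold. At an unadjusted p under 0.05, limma gave 0 higher and 12 lower, and 10228 of all 23685 probes tested passed in either direction. The median over the 14 was −1.23, against 0.05 over all genes tested. Ier3, an early response gene linked to cell survival, had signals of 13100 and 12300 in 2D culture and 981 and 1100 in RTOC, a mean log2 ratio of −3.61 ± 0.19 (SD, n = 2), or 12.2-fold lower (limma adjusted p = 0.0017). Egr2, a zinc finger transcription factor, had 22200 and 6870 against 1190 and 1090, a mean of −3.44 ± 1.1 (limma adjusted p = 0.00455). Fosl1, which encodes the AP-1 subunit Fra-1, had 1620 and 323 against 209 and 53.2, a mean of −2.78 ± 0.25 (limma adjusted p = 0.00259), and with normexp and loess −1.07 (limma adjusted p = 0.0805). In these 3 genes every RTOC signal lay below every 2D signal. These genes also answer to other signals, so that the list does not measure the activity of the EGF receptor. The list was chosen with earlier results of these data known, so that its count is not independent support. Under the alternative settings described at the end, from 0 to 12 of these genes were called lower.

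**Figure D4:**
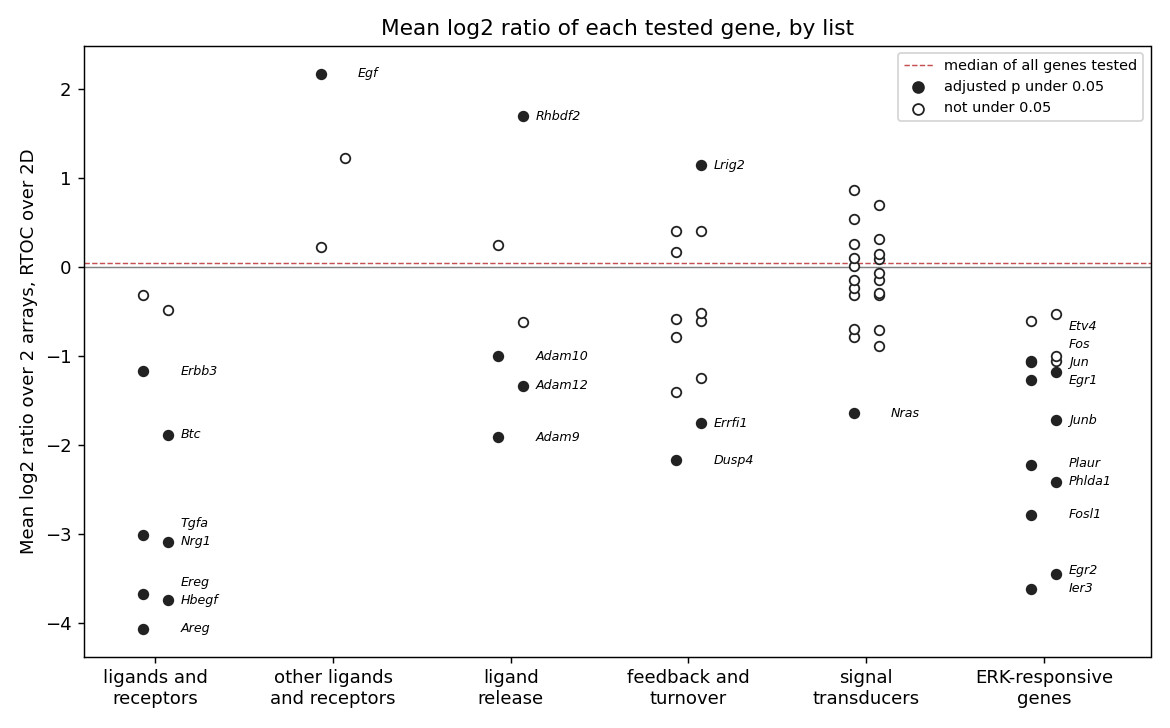
Mean log2 ratio of RTOC over 2D (2 arrays) of each tested gene, by list, filled and named where the limma adjusted p was under 0.05, with the median of all genes tested (0.05) as a dashed line. In the first column 7 of 9 members are filled and below 0, in the fifth 1 of 21 signal transducers is filled, and in the sixth 10 of 14 ERK-responsive genes are filled and below 0.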

How the data were processed

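Two-colour Agilent whole mouse genome arrays with Cy3 (2D culture) and Cy5 (RTOC) were used, both on 1 slide and in 1 scan, with no dye swap. The authors ran Feature Extraction (9.1.3.1 per the file headers, 11.5.1.1 per the labels). The deposited scanner files hold intensity values (mean, background, and a processed signal after background subtraction and dye normalization), a log10 ratio of Cy5 over Cy3, and a score of 0 or 1 for a signal well above background. The deposited table of series values equals the log10 ratio of the processed signals (largest difference 5e-10), and was not used further. The methods name quantile normalization among all arrays.

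Without control spots and outlier spots (5 and 1), the processed signals of the 4 channels were quantile normalized and the spots of a probe averaged. The log2 ratio of 23685 probes with at least 1 channel well above background on each array was tested against 0. The test was limma 3.58.1 (R 4.3.3, lmFit and eBayes, 1 residual and 4.5 prior degrees of freedom), two-sided, with Benjamini-Hochberg adjustment over all probes tested. The procedure was run on simulated ratios drawn from its own fitted spread. These hold no dye bias, background or stage difference, so that the run cannot address those limits. For bounds, signals were normalized by normexp, loess and Aquantile. Probes were named through RefSeq accession (22951), symbol (6659) or older symbol (3109), and 8455 kept the name in the files. Well above background were 53.1% and 53.5% of probes in 2D culture and 56.3% and 60.9% in RTOC (E14.5 and E15.5), and with 2 arrays their number limits the precision. The arrays hold cells of fetuses of different stages, so that the spread between them includes stage and time in organ culture.

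The members and gene lists were chosen with earlier results of these data known. All member probes are named, and of each pathway list the genes past the threshold with the 3 highest and 3 lowest mean log2 ratios, and every other ligand and receptor. The processed signals are relative, and levels of different probes were not compared, although the marker sums add them. Promoters come from RefSeq (GRCm38.p6). Of these, those of Areg and Epgn are printed. The alternatives were other background corrections and normalizations, other filters, channels without pairing, the methods' t-test and each array alone.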

Additional observations from a re-analysis of the deposited data

Results flagged for a closer look

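Of the member probes well above background in all 4 channels, Egfr probe 5 alone had opposite signs on the arrays. Its log2 ratio of RTOC over 2D was −0.83 on the E14.5 array (a signal of 636 in 2D culture against 359 in RTOC) and 0.37 for E15.5 (488 against 629). With 1 array a stage the difference was not tested. Among all genes tested, 20.1% had opposite signs.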

How the results depend on the processing

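All 9 tested members kept a negative mean log2 ratio under every alternative that gave one, and on each array alone (from −4.73 to −0.06), and 0 were called higher. Centring each array's log ratios on the median moved the median over all probes tested from −0.007 to 0.151 and called 2 other ligands and receptors and 1 transducer higher. Without quantile normalization 2 transducers were lower. With normexp and loess, with or without Aquantile, 4 members were lower (not Areg, −1.43, Ereg, −0.58, and Btc, −0.28), with 1 gene of ligand release and 3 transducers lower, 0 other ligands and 0 feedback genes higher, and 2008 probes higher and 1701 lower of all tested (3609 and 3211 in the values reported). With normexp and median centring 1 member, Hbegf, was lower (Erbb3 −0.74, Areg −1.36, Ereg −0.53, Tgfa −0.58, Btc −0.25, Nrg1 −0.69), with 0 genes of ligand release, 1 of feedback and 3 ERK-responsive genes lower, 0 other ligands and 0 feedback genes higher, and 2219 probes higher and 685 lower. Without a filter on dim probes limma called 0 probes in either direction (10666 at an unadjusted p under 0.05, 7 members among them), hence 0 members and 0 genes of every list, at the same log2 ratios as reported (Areg −4.06, Hbegf −3.74, Ereg −3.67, Nrg1 −3.08, Tgfa −3.01, Btc −1.88, Erbb3 −1.17). With both channels of both arrays required well above background, 4 members were tested and 2 were lower (Hbegf and Erbb3). With this filter 3 transducers were lower, 0 other ligands were higher, and 2843 probes were higher and 3234 lower of 20158 tested. With no replicate block, the 4 channels taken as single samples, 6 members were lower (Erbb3, −1.17, did not pass, adjusted p = 0.114), with 4 ERK-responsive genes lower, 0 feedback genes higher, and 2220 probes higher and 1813 lower. With trend and robust fitting 1 transducer was higher and 3 were lower. The methods' t-test called 0 after adjustment in every list and, unadjusted, 4 members lower, 2 other ligands higher, 0 genes of ligand release higher, 0 feedback genes in either direction, 1 transducer higher and 3 lower, 3 ERK-responsive genes lower, and 1645 probes higher and 1894 lower. With all probes of a gene, the median was −0.78 for Erbb3, −2.01 for Tgfa, −0.94 for Btc and −2.87 for Nrg1. The causes of these changes were not tested. No paired analysis beyond the ratio within each array was possible because the labels give 1 group.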
